A study of Mus musculus with 6 samples.

Results

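The genes described here are 10 components of the actin cytoskeleton and of cell contractility, Actb, Actg1, Flna, Myh9, Myl9, Tpm1, Tpm4, Vim, Tagln2 and Tmsb10. They were found by exact match of their names among the 14499 genes of the deposited table, and all 10 had a row. Their transcripts were measured by RNA-seq of total liver RNA in 3 Arid1a_KO_DDC livers, in which Arid1a was knocked out in hepatocytes only, and in 3 WT_DDC livers of wild-type mice. Mice of both groups had a mixed C57Bl/6; 129Sv background, were 10 weeks old and had been injured with DDC over 2 weeks, a diet compound used in mice to bring about porphyrin plugs, bile duct damage and a ductular reaction. Arid1a encodes a subunit of the BAF chromatin remodelling complex, and the study concerns the response of hepatocytes to YAP signaling in injured liver. The labels name neither the Cre driver nor whether libraries come from separate mice, so the p-values given are for the scatter among libraries, which may be technical. All 6 livers were injured, and no value here compares injured with uninjured liver.

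Actin filaments are built from monomers, bundled by crosslinkers, decorated by tropomyosins and pulled by nonmuscle myosin II, whose motor is switched on by phosphorylation of its regulatory light chain by ROCK and other kinases. Monomeric actin holds back the MRTF cofactors of SRF, a transcription factor that binds the CArG box in front of many actin and contractility genes, and tension on filaments is a known input to YAP, the cofactor of TEAD factors. In liver these genes are expressed in hepatocytes, in biliary cells and, at high levels, in stellate, endothelial, smooth muscle and blood-derived cells. A level in total liver RNA therefore sums over cell types, and fewer cells of a type cannot be told apart from less RNA per cell.

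Levels are given as FPKM, which scales fragments by gene length and by the mapped fragments of a library, so they can be set side by side between genes. Differences are knockout minus wild type on the scale of log2(FPKM + 1), which understates the change of genes with low values, with the standard error (SE) and the Benjamini-Hochberg adjusted p of a limma fit over all 11839 genes with at least 1 FPKM in at least 3 libraries. All 10 genes were among these. An adjusted p under 0.05 counts as past the threshold.

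The number of genes at 1 FPKM or more was 11280 to 11712 by library, lowest in Arid1a_KO_DDC replicate 3. Absolute depth is unknown. Steps between low values put the depth of the libraries at 0.905 (Arid1a_KO_DDC replicate 3) to 1.16 (Arid1a_KO_DDC replicate 1) times that of WT_DDC replicate 1. Hepatocyte markers, led by albumin, had a summed FPKM of 46210, 43530 and 53250 in knockout and 43480, 41190 and 43200 in wild-type livers, the largest sum of the cell type marker lists in every library. The mitochondrial transcript mt-Atp8 was at 535350, 539390 and 516350 FPKM in knockout and at 88549, 842640 and 588260 FPKM in wild-type replicates 1, 2 and 3, so WT_DDC replicate 1 stood apart, and the part of this in other values was not tested. Library identifiers fall into L0566 and L0567, which are replicate 1 of the 2 groups, and L0602 to L0605. The Y-linked gene Ddx3y was near 0 in replicate 1 of both groups (0.0227 FPKM in knockout and 0.0527 FPKM in wild type) and between 9.27 and 11.3 FPKM in the other libraries. As a mean, the 10 genes were lowest in Arid1a_KO_DDC replicate 3, and 7 of the 10 had their lowest value there. Actg1 was lowest in WT_DDC replicate 1, and Myh9 and Tpm4 in Arid1a_KO_DDC replicate 2. The mean of the log2 values of the 10, each centred on the gene's own mean, was -0.67 in Arid1a_KO_DDC replicate 3. It was 0.0094 and 0.017 in the other knockout libraries and 0.15 to 0.31 in the wild-type libraries. The median over all genes tested was 0.019 in Arid1a_KO_DDC replicate 3 on the same centred scale. The share of all genes tested with their lowest value in that library is not given here.

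**Figure D1:**
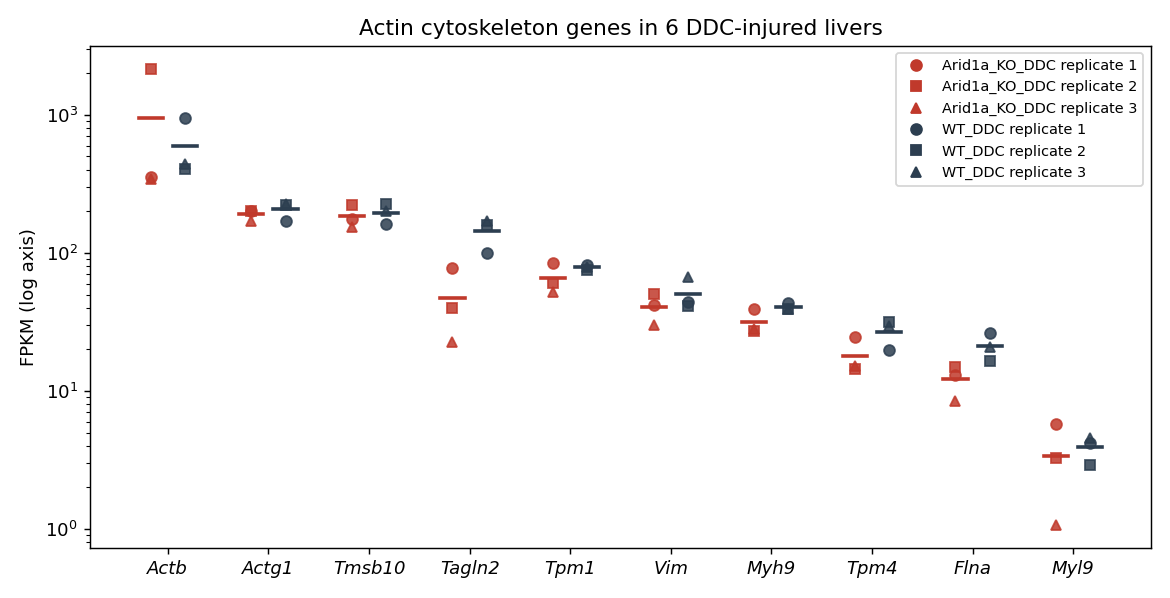
FPKM of each gene on a log axis in the 3 Arid1a_KO_DDC livers (left, red) and the 3 WT_DDC livers (right, dark blue); marker shapes give the replicate and bars the group mean. Tagln2 lies between 22.5 and 78.2 FPKM in knockout livers, below the lowest wild-type value of 99.1 FPKM, while Actb reaches 2161 FPKM in a single knockout library.

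None of the 10 genes differed between the genotypes past the threshold over all genes. Among the 11839 genes tested, 0.355% were past it and lower in knockout livers and 0.135% past it and higher. Without adjustment 2 of the 10, Tagln2 and Flna, had a limma p under 0.05, as did 1320 of the 11839 genes tested. The log2 difference was negative for 9 of the 10, against 49.4% of all genes tested, and its median over the 10 was -0.31, against 0.0034 over all genes tested. In 3 of the 10, Tagln2, Flna and Myh9, all knockout values lay below all wild-type values, and none had the reverse; of the 11839 genes, 9.56% had every knockout value below every wild-type value and 7.09% the reverse. The members were chosen by name with earlier results of these data known, so these counts are a description. Without Arid1a_KO_DDC replicate 3 the median was -0.12 and 7 of the 10 differences were negative, and without Arid1a_KO_DDC replicate 1 the median was -0.50.

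**Figure D2:**
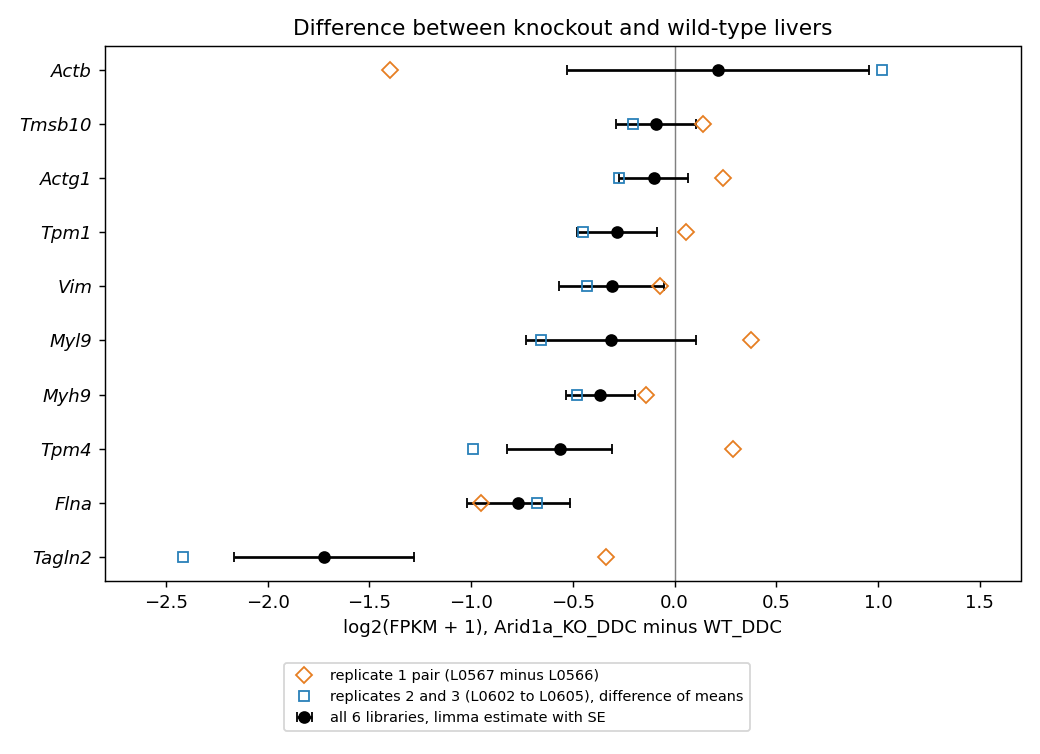
Difference of log2(FPKM + 1), Arid1a_KO_DDC minus WT_DDC, for each gene: black points are limma estimates over all 6 libraries with their SE, orange diamonds the replicate 1 pair and blue squares the difference of means of replicates 2 and 3. Tagln2 lies furthest to the left at -1.72, and the diamonds and squares lie on opposite sides of 0 for Actb, Actg1, Tmsb10, Tpm1, Tpm4 and Myl9.

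Tagln2 had the largest difference. It encodes transgelin-2, a calponin-family protein that binds and stabilises actin filaments and is found in many cells outside smooth muscle (ENSMUSG00000026547, chromosome 1, 172500047 to 172507380 on the plus strand of GRCm38). It was at 78.2, 40.2 and 22.5 FPKM in knockout replicates 1, 2 and 3, and at 99.1, 159 and 171 FPKM in wild-type replicates 1, 2 and 3. The groups did not overlap, and the knockout mean was 0.328 times the wild-type mean (47.0 ± 28.4 and 143 ± 38.7 FPKM, SD, n = 3 each). The log2 difference was -1.72 (SE 0.44, 95% interval -2.78 to -0.67, limma adjusted p = 0.220). It had the same sign under all 17 alternatives tried, from -2.41 to -1.30, and passed in none of them (lowest adjusted p = 0.0619). In the replicate 1 pair the difference was -0.34, and in replicates 2 and 3 it was -2.41. The interaction of genotype with library set was 2.08 (limma adjusted p = 0.447). Its paralog Tagln, the smooth muscle transgelin, was at 7.29, 3.83 and 3.07 FPKM in knockout and 9.62, 4.98 and 11.01 FPKM in wild-type livers (log2 difference -0.74, SE 0.35, adjusted p = 0.496), with groups that overlapped.

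The 250 bases before the RefSeq start of Tagln2 were read for the TEAD core GGAATG, as were those of other members described below. It occurred 2 times, both as the reverse complement CATTCC, beginning 118 and 80 bases before that start. Both stretches of 30 bases around them are shown in RefSeq sequence of GRCm38.p6 (plus strand, chr1:172500116-172500145 and chr1:172500154-172500183), with CATTCC in capitals.
Tagln2 first match: tcctttacggctCATTCCtgcctactgacc
Tagln2 second match: taagcgctccagCATTCCacgcggcggcgc
Of the 32851 windows of this length in the RefSeq promoter table, 12.6% hold GGAATG on either strand and 1.02% hold it at least 2 times. A match of these letters is a description and not a binding site. These matches are shown apart because Tagln2 had the largest difference, and their part in that difference was not tested. GENCODE M21 also gives Tagln2 a transcript that begins further upstream, and both matches lie in its first exon, in the 5′ UTR.

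Flna had groups that did not overlap as well. Filamin A crosslinks actin filaments into networks and tethers them to integrins (ENSMUSG00000031328, chromosome X, 74223461 to 74249820, minus strand). It was at 13.01, 14.99 and 8.42 FPKM in knockout and at 26.1, 16.5 and 21.0 FPKM in wild-type replicates 1, 2 and 3. The gap between the groups was narrow, between knockout replicate 2 and wild-type replicate 2. The log2 difference was -0.77 (SE 0.25, 95% interval -1.36 to -0.17, limma adjusted p = 0.320), and it was negative in the replicate 1 pair (-0.95) and in replicates 2 and 3 (-0.67).

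Myh9 was the third gene whose groups did not overlap, by a gap of less than 0.1 FPKM. It encodes the heavy chain of nonmuscle myosin IIA, the motor that contracts actin filaments (ENSMUSG00000022443, chromosome 15, 77760587 to 77842175, minus strand). Knockout replicates 1, 2 and 3 had 39.07, 27.2 and 28.4 FPKM, and wild-type replicates 1, 2 and 3 had 43.1, 39.17 and 39.15 FPKM. Knockout replicate 1 was thus level with the wild-type livers, and replicates 2 and 3 were below them (log2 difference -0.37, SE 0.17, adjusted p = 0.484). The heavy chains of the other nonmuscle isoforms were at -0.10 (SE 0.20, adjusted p = 0.884) for Myh10, with overlapping groups, and at -0.38 (SE 0.16, adjusted p = 0.439) for Myh14, where knockout livers had 9.19, 8.88 and 9.27 FPKM and wild-type livers 10.3, 14.8 and 11.8 FPKM.

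Myl9, a regulatory light chain abundant in contractile cells and a classical SRF target, had the lowest level of the 10 genes (ENSMUSG00000067818, chromosome 2, 156775420 to 156781658, plus strand). It was at 5.76, 3.25 and 1.07 FPKM in knockout and at 4.21, 2.91 and 4.59 FPKM in wild-type replicates 1, 2 and 3. Knockout livers held both its highest and its lowest value, and the groups overlapped (log2 difference -0.31, SE 0.42, adjusted p = 0.823; 0.15 without knockout replicate 3). The regulatory light chains of nonmuscle cells, Myl12a and Myl12b, were present at far higher levels and did not overlap between the groups. Myl12a was at 122, 112 and 94.9 FPKM in knockout and 133, 138 and 151 FPKM in wild-type livers (log2 difference -0.36, SE 0.15, adjusted p = 0.430). Myl12b was at 158, 176 and 148 FPKM in knockout and 179.6, 283 and 241 FPKM in wild-type livers (-0.52, SE 0.20, adjusted p = 0.390). The essential light chain Myl6 overlapped between the groups at -0.17 (adjusted p = 0.743).

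The 2 cytoplasmic actins differed in how far their libraries spread. Actb, cytoplasmic beta-actin, is often used as a reference gene (ENSMUSG00000029580, chromosome 5, 142903115 to 142906754, minus strand). It was at 358, 2161 and 342 FPKM in knockout and at 944, 408 and 439 FPKM in wild-type replicates 1, 2 and 3. Knockout replicate 2 and wild-type replicate 1 stood apart, and the other 4 libraries lay between 342 and 439 FPKM. The highest value of Actb was 6.33 times its lowest, and the log2 difference of 0.21 had an SE of 0.74 (95% interval -1.54 to 1.97, adjusted p = 0.940). The log2 difference of Actb was -0.66 without knockout replicate 2 and -0.00402 without wild-type replicate 2.

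Actg1, cytoplasmic gamma-actin, did not show the excess of Actb (ENSMUSG00000062825, chromosome 11, 120345690 to 120348542, minus strand). It was at 200.1, 203 and 170.5 FPKM in knockout and at 169, 224 and 227 FPKM in wild-type livers, and its highest value was 1.34 times its lowest. The log2 difference was -0.10 (SE 0.17, 95% interval -0.50 to 0.30, adjusted p = 0.860). The ratio of Actb to Actg1 was 1.79, 10.7 and 2.00 in knockout and 5.58, 1.82 and 1.94 in wild-type replicates 1, 2 and 3. Of the muscle actins, Acta2, smooth muscle alpha-actin and a mark of activated stellate cells and vessels, was at 4.08, 2.93 and 1.41 FPKM in knockout and 4.43, 4.19 and 8.18 FPKM in wild-type livers, without overlap (log2 difference -0.81, SE 0.34, adjusted p = 0.443). Acta1, Actc1 and Actg2 had no row in the deposited table.

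Among exact windows of 50 bases in its longest coding transcript, Actg1 shared 56.7% with transcripts of other genes in GENCODE M21, mostly processed pseudogenes, and Actb shared 14.2%. For Tmsb10 this share was 43.5%, for Tpm4 12.1%, for Myh9 1.12% and for Tagln2 0.781%; Flna, Myl9, Tpm1 and Vim shared none. How the deposited values divide such fragments is not given in the sources used here, so the levels of the genes that share windows are uncertain. The length of the study's reads was not available to this comparison, and 50 bases is a chosen window. Exons of Tpm4 overlap an antisense transcript, Gm26586, over 6.08% of their bases, and strand use in the counting is not stated.

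The tropomyosins wrap along actin filaments and set which myosins and severing proteins reach them. Tpm1 was at 84.97, 60.7 and 51.9 FPKM in knockout and at 81.7, 75.8 and 78.6 FPKM in wild-type livers (ENSMUSG00000032366, chromosome 9, 67022590 to 67049406, minus strand). Its coefficient of variation was 26.0% in knockout and 3.76% in wild-type livers, and the groups overlapped through knockout replicate 1 (log2 difference -0.28, SE 0.20, adjusted p = 0.647). Tpm4, a tropomyosin of nonmuscle cells, was at 24.5, 14.6 and 15.1 FPKM in knockout and at 19.9, 31.4 and 29.5 FPKM in wild-type livers (ENSMUSG00000031799, chromosome 8, 72134975 to 72153142, plus strand; log2 difference -0.56, SE 0.26, adjusted p = 0.481). In replicates 2 and 3 both knockout values of Tpm4 were below both wild-type values, at -0.99, while in the replicate 1 pair knockout was higher by 0.29. Tpm3 was at -0.12 and Tpm2 at -0.33 (adjusted p = 0.914 and 0.721); the log2 difference of Tpm3 was positive without knockout replicate 2 (0.078), knockout replicate 3 (0.010) or wild-type replicate 1 (0.039).

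Vim and Tmsb10 were the remaining members, and both overlapped between the groups. Vimentin is the intermediate filament protein of mesenchymal, endothelial and blood cells and is sparse in healthy hepatocytes (ENSMUSG00000026728, chromosome 2, 13573927 to 13582826, plus strand). It was at 41.9, 50.8 and 29.8 FPKM in knockout and at 44.1, 41.6 and 66.9 FPKM in wild-type livers (log2 difference -0.31, SE 0.26, 95% interval -0.92 to 0.30, adjusted p = 0.708). Desmin, its relative in stellate and muscle cells, was at 2.29, 1.78 and 1.39 FPKM in knockout and 3.10, 2.47 and 2.502 FPKM in wild-type livers, without overlap (-0.40, SE 0.18, adjusted p = 0.474). Tmsb10, a small peptide that sequesters actin monomers, was at 177, 222 and 154 FPKM in knockout and at 161, 226 and 201 FPKM in wild-type livers (ENSMUSG00000079523, chromosome 6, 72957347 to 72958748, minus strand; log2 difference -0.092, SE 0.20, 95% interval -0.56 to 0.38, adjusted p = 0.898). Its paralog Tmsb4x, the main monomer-sequestering thymosin, was at 403, 397 and 249 FPKM in knockout and 506, 447 and 459.5 FPKM in wild-type livers, without overlap (-0.46, SE 0.22, adjusted p = 0.490).

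**Figure D3:**
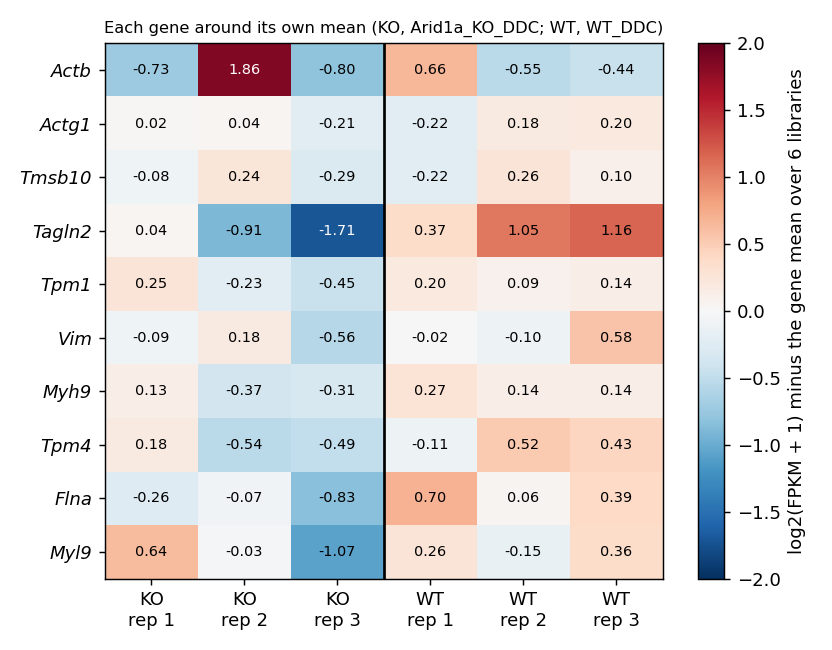
Heat map of log2(FPKM + 1) of each gene (rows, from highest to lowest mean level) minus its own mean over the 6 libraries; the 3 Arid1a_KO_DDC columns stand left of the line and the 3 WT_DDC columns right of it. Knockout replicate 3 is negative for all 10 genes, from -0.21 for Actg1 to -1.71 for Tagln2, and the excess of Actb in knockout replicate 2 (1.86) and wild-type replicate 1 (0.66) has no counterpart in Actg1.

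In both groups Actb was highest, with means of 953 FPKM in knockout and 597 FPKM in wild-type livers, followed by Actg1 and Tmsb10, whose ranges overlapped each other. Myl9 was lowest in both, below Flna without overlap. Tagln2 stood at rank 5 by mean in knockout livers, where its range overlapped those of Tpm1, Vim, Myh9 and Tpm4. In wild-type livers Tagln2 stood at rank 4, and its range overlapped those of Tmsb10 and Actg1. Its lowest wild-type value of 99.1 FPKM was above the highest of Tpm1, 81.7 FPKM. By mean level over all libraries the genes ran from the 29.2nd percentile of the genes tested for Myl9 to the 98.8th for Actb. The 5 genes outside the 10 whose centred log2 profile over the 6 libraries lay closest to the mean profile of the 10 were Crtap, Tmsb4x, Igfbp7, Pcdhga8 and Emp1, at root mean square distances of 0.0670 to 0.0958 log2 units among 6978 candidates with a mean of at least 5 FPKM. The members themselves lay 0.183 (Tpm1) to 0.932 (Actb) from that profile, so it stands for Tpm1 and Vim better than for Actb and Tagln2 (0.765).

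The same length of sequence was read for the CArG box, the SRF site, and for GGAATG in 9 of the 10 members, all but Actb. Actg1 and Myl9 held a CArG box, against 1.47% of all 32851 windows. Flna, Tpm1 and Tagln2 held GGAATG, against 12.6% of the windows. Those of Actg1, Myl9, Flna and Tpm1 are shown as examples of an actin, a myosin light chain, a filamin and a tropomyosin, with the box, GGAATG or CATTCC in capitals. They come from RefSeq (GRCm38.p6), at chr11:120348543-120348745 (minus strand) for Actg1, chr2:156775214-156775419 (plus) for Myl9, chrX:74246556-74246784 (minus) for Flna and chr9:67049252-67049281 (minus) for Tpm1, and end where a 5′ UTR in GENCODE M21 begins; for Tpm1, whose match lies in such a UTR, 30 bases are shown.
Actg1: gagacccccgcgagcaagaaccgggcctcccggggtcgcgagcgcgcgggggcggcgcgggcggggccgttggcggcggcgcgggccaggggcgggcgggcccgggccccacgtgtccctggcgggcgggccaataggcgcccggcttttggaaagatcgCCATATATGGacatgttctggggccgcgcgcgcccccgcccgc
Myl9: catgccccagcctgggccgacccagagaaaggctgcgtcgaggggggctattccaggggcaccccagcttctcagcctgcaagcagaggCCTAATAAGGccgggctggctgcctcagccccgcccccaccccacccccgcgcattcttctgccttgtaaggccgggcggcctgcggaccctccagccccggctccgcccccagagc
Flna: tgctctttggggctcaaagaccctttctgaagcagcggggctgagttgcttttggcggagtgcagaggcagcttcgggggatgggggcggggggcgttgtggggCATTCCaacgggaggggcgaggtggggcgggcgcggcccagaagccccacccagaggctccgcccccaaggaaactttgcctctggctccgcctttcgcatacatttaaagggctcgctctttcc
Tpm1: tggctgtcctaaGGAATGcggtcgcccccc
The box of Actg1 begins 90 and that of Myl9 161 bases before the RefSeq start, and the match of Flna begins 146 and that of Tpm1 56 bases before it. The genes with a CArG box had log2 differences of -0.10 and -0.31, and those with GGAATG of -0.77, -0.28 and -1.72. The members with neither, Myh9, Tpm4, Vim and Tmsb10, had differences of -0.37, -0.56, -0.31 and -0.092, and the window of Rhoc, which had a difference of -1.78, held neither. A window without these letters says nothing of sites outside its 250 bases. The part of these matches in the differences was not tested. Srf itself was at 0.034 (adjusted p = 0.955), and of its cofactors and partners Elk4 was at -0.28, Elk1 at 0.17 and Mkl1, which encodes MRTF-A, at -0.20 (adjusted p = 0.448, 0.694 and 0.700), with Fhl2 at -0.31 (adjusted p = 0.721).

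Other genes of the cytoskeleton, taken from lists by role, had no member past the threshold in either direction. Besides genes of actin filaments and their regulation, these lists hold the intermediate filament genes Des, Krt8 and Krt18. All of these had a negative difference, and Des and Krt8 were lower in knockout livers without overlap. Of 102 genes of the lists tested outside the 10, 84 (82.4%) were lower in knockout livers by the sign of the difference, whose median was -0.20. In 26 (25.5%) all knockout values lay below all wild-type values, against 2 (1.96%) the other way. Over all genes tested these shares were 49.4%, 9.56% and 7.09%. With each library left out in turn, 79 to 87 of the 102 were negative, and the median was -0.14 without Arid1a_KO_DDC replicate 3. The lists and the 10 genes were chosen with results of these data in view, and members of a list can share a cell source, so no set test was made.

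Rhoc had the largest difference of the wider lists. RhoC is a small GTPase that drives contraction through ROCK, and its relatives in the list are Rhoa and Rhob. It was at 19.4, 12.95 and 8.95 FPKM in knockout and at 39.6, 59.8 and 45.3 FPKM in wild-type livers, without overlap (log2 difference -1.78, SE 0.29, limma adjusted p = 0.0671). Without Arid1a_KO_DDC replicate 1 it passed, with a log2 difference of Rhoc of -2.04 (limma adjusted p = 0.0433), and it passed in none of the other 16 alternatives. Rhob was at -0.30 and Rhoa at -0.14 (adjusted p = 0.606 and 0.714). Among the 6978 candidate genes, Rhoc was also the gene whose profile over the 6 libraries lay closest to that of Tagln2, at a distance of 0.278 log2 units, a comparison made after the values were seen. Of the other genes in its list, which holds ROCK signalling, Arhgdia was at -0.30, Limk1 at 0.36 and Limk2 at 0.26 (adjusted p = 0.500, 0.536 and 0.603), and 14 of the 18 tested were negative.

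Among nucleation and branching genes 14 of 16 differences were negative, with a median of -0.20. Arpc1b, a subunit of the Arp2/3 complex, was at 72.8, 60.5 and 54.4 FPKM in knockout and at 102, 117 and 98.5 FPKM in wild-type livers, without overlap (log2 difference -0.76, SE 0.16, adjusted p = 0.135). Its paralog Arpc1a was at 0.051 (adjusted p = 0.920), with 29.8, 31.6 and 35.7 FPKM in knockout and 27.9, 33.7 and 32.0 FPKM in wild-type livers. The formins Diaph1 and Diaph2 were at -0.50 and -0.34, and cortactin (Cttn) at -0.50 (adjusted p = 0.430, 0.563 and 0.481). Of the 17 genes that bind monomers, cap or sever filaments, 14 were negative with a median of -0.16. The recycling factor Cap1 was at -0.43, the severing protein destrin (Dstn) at -0.37, Coro1b at -0.35 and Wdr1 at -0.56 (adjusted p = 0.297, 0.315, 0.345 and 0.481), while profilin (Pfn1) and cofilin (Cfl1) were at 0.021 and -0.16 (adjusted p = 0.970 and 0.694).

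Crosslinking and bundling genes were negative in 13 of 17 cases, with a median of -0.31. Pdlim7, which links kinases to filaments, was at 9.94, 9.81 and 6.88 FPKM in knockout and at 14.5, 14.8 and 16.3 FPKM in wild-type livers (log2 difference -0.73, SE 0.17, adjusted p = 0.170). Iqgap1, a scaffold for filaments, was at -0.64, ezrin (Ezr), which joins filaments to the membrane, at -0.45 and caldesmon (Cald1) at -0.50 (adjusted p = 0.297, 0.405 and 0.417). Focal adhesion genes were negative in 12 of 14 cases, with a median of -0.25. Tes, a LIM protein of adhesions, was at 5.36, 3.93 and 4.15 FPKM in knockout and at 8.16, 9.15 and 7.80 FPKM in wild-type livers (-0.78, SE 0.15, adjusted p = 0.118), and talin (Tln1), Ilk and zyxin (Zyx) were at -0.33, -0.38 and -0.33 (adjusted p = 0.393, 0.450 and 0.481). The hepatocyte keratins Krt8 and Krt18, which form the intermediate filaments that hepatocytes use in place of vimentin, were at -0.61 and -0.28 (adjusted p = 0.403 and 0.695).

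**Figure D4:**
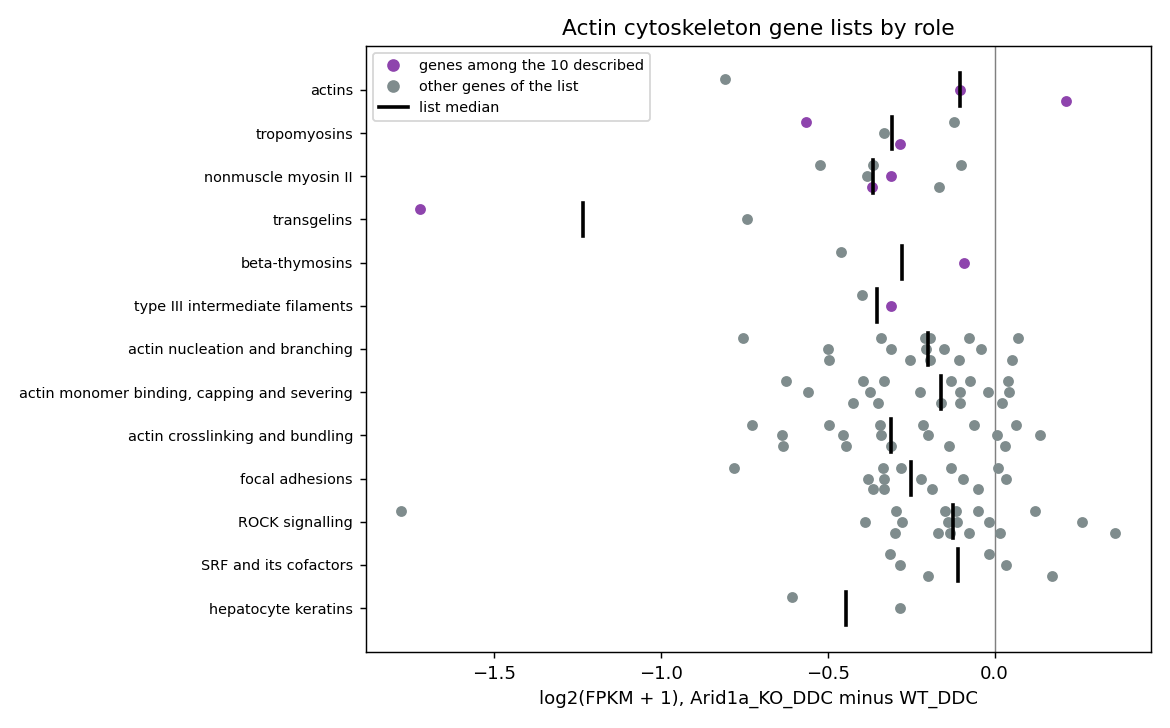
Difference of log2(FPKM + 1), Arid1a_KO_DDC minus WT_DDC, of every tested gene in the lists by role except the filamin list, which is not drawn. Purple points are genes among the 10 described (without Flna, a filamin), grey points other genes (offset vertically for legibility) and black bars list medians. All list medians drawn lie below 0, and Tagln2 and Rhoc lie apart on the left at -1.72 and -1.78.

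Some marker lists had their lowest sum in the library in which most of the members were lowest. The hepatocyte, biliary, neutrophil and erythroid lists did not. Summed FPKM of 9 stellate and fibroblast markers was 332, 296 and 207.5 in knockout and 463, 315 and 418 in wild-type replicates 1, 2 and 3, with 7 of 9 differences negative and Pdgfrb at -0.56. That of 7 endothelial markers was 75.0, 41.7 and 28.9 in knockout and 76.7, 50.7 and 81.7 in wild type, with 7 of 7 negative and Stab2 at -0.23. That of 7 macrophage and monocyte markers was 384, 330.5 and 271 in knockout and 571, 438 and 475 in wild type, without overlap and with Adgre1 at -0.47. Each of these 3 sums was lowest in Arid1a_KO_DDC replicate 3, the library in which 7 of the 10 actin genes were lowest. The smooth muscle list rested on 3 genes, with sums of 12.9, 9.99 and 5.31 in knockout and 12.8, 12.3 and 15.9 in wild type. Its defining markers Myh11 and Cnn1 had no row in the deposited table. Its genes Acta2 and Des are also in the lists by role. Biliary markers, 6 of 7 with a negative difference, summed to 262, 221 and 434 in knockout and 155, 411 and 325 in wild type, a sum led by Spp1, while Krt19 was at -0.61 and Sox9 at -1.21. Of all these markers, Cldn4, a biliary tight junction gene, was the 1 past the threshold (log2 difference -1.42, adjusted p = 0.0386), and no gene of the table passed without Arid1a_KO_DDC replicate 3. B and plasma cell markers summed to 151 in knockout replicate 2, against 2.68 and 1.53 in the other knockout libraries and 53.7 to 109 in wild type. Erythroid markers summed to 300.1, 429.7 and 335 in knockout and 189.7, 268.8 and 211.7 in wild type, without overlap and with knockout higher, and neutrophil markers to 12.1, 24.8 and 22.3 in knockout and 36.5, 55.3 and 29.8 in wild type, without overlap and with knockout lower. The sums of T and NK cell and of platelet markers overlapped between the groups and reached at most 12.5 and 12.3 in any library. The part of these cells in the differences of the actin genes was not tested.

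**Figure D5:**
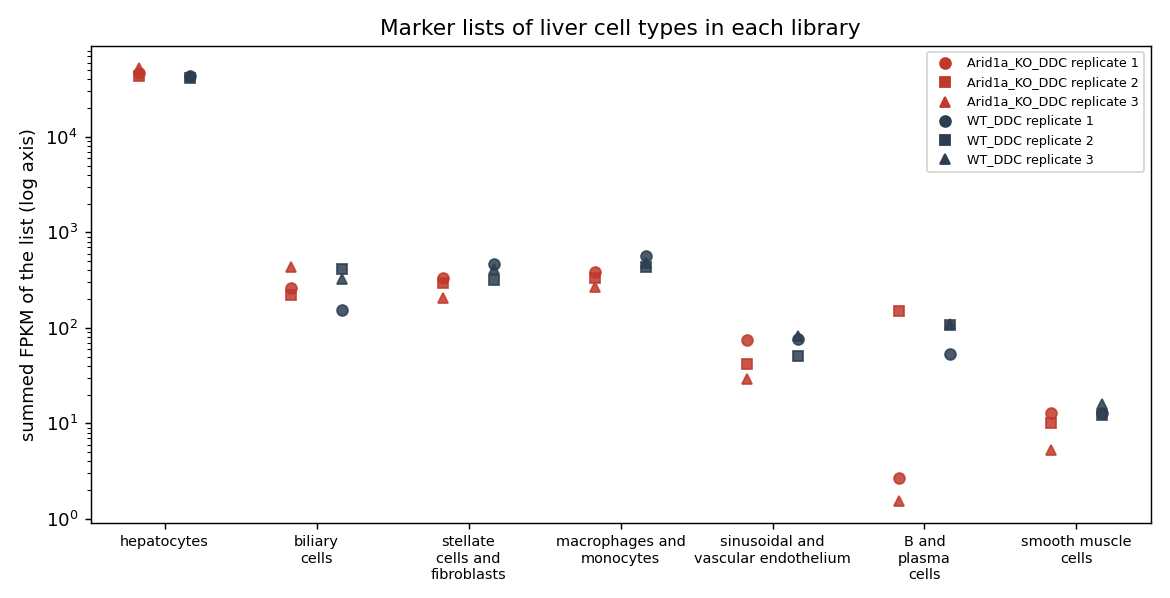
Summed FPKM of marker lists of liver cell types on a log axis, with Arid1a_KO_DDC livers left in red and WT_DDC livers right in dark blue, and marker shapes giving the replicate. Stellate, macrophage, endothelial and smooth muscle sums are lowest in knockout replicate 3 (207.5, 271, 28.9 and 5.31), and the hepatocyte sum is highest there (53250).

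Replicate 1 and replicates 2 and 3 gave unlike differences for several of the genes, although the replicate 1 comparison is of 1 library per group. In the replicate 1 pair 5 of the 10 differences were negative, the largest being -1.40 for Actb and -0.95 for Flna. In replicates 2 and 3, 9 of the 10 were negative, Actb being the exception at 1.02. The interaction of genotype with library set did not pass for any of the 10 in limma; its lowest adjusted p was that of Tpm4 (interaction 1.28, limma adjusted p = 0.394). An exact two-sided permutation test of mean FPKM, which cannot give a p below 0.1 with 3 against 3 libraries, gave 0.1 for Tagln2, Flna and Myh9 and 0.2 to 1.0 for the others.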

How the data were processed

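Total RNA from whole liver was sequenced for 6 libraries, and groups and replicate numbers were taken from the sample titles. The authors deposited 1 table of log2 FPKM with 14499 genes; the submitters' processing notes name Cufflinks, TopHat2 2.0.6 and the mouse build mm10 or GRCm38. Annotation, read length and strand setting: not given in the sources used here. An offset of 0.000977 had been added before the logarithm (checked on 60079 values between 1 and 50 FPKM) and was removed. No count model was used, since FPKM are not counts. Differences were fitted on log2(FPKM + 1) with limma 3.58.1 in R 4.3.3 (eBayes with trend, two-sided, Benjamini-Hochberg over 11839 genes), and the fit was checked on simulated data. The members and lists were chosen with earlier results of these data known. Genes named are the 10 members and, whatever their values, their paralogs (1 is not reported here), the 4 smallest p in each role list, the first marker and at most 2 others of a marker list, and the 5 nearest profiles; Apbb2, Lrrc58, Ddx3y, mt-Atp8, Arpc1a, Pfn1, Cfl1, Rhoa, Rhob, Srf and Spp1 were added after seeing values. Positions are from GENCODE M21 and promoter windows from RefSeq, both on GRCm38 (sequence in a UTR was not printed beyond 30 bases); 14453 of 14499 identifiers were found. Settings changed one at a time were the pseudocount (0.1, 5), the filter (none, 5 FPKM), median-of-ratios or quantile scaling, the variance prior, a replicate block, a library number term, libraries L0602 to L0605 alone, and each library left out. Figures were drawn with matplotlib 3.10.9.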

Additional observations from a re-analysis of the deposited data

Results flagged for a closer look

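In 3 of the 10 genes the knockout minus wild type difference ran opposite ways in replicate 1 and in replicates 2 and 3, with every knockout value of replicates 2 and 3 below every wild-type value of those replicates and knockout replicate 1 above wild-type replicate 1. The interaction of genotype with library set, on the log2 scale, was 0.515 for Actg1 (limma adjusted p = 0.595), 0.508 for Tpm1 (adjusted p = 0.592) and 1.28 for Tpm4 (adjusted p = 0.394), so none passed over all genes. The replicate 1 difference rests on 1 library per group, and those libraries also differ from the others in the Y-linked Ddx3y and in their identifiers. WT_DDC replicate 1 also had the lowest mt-Atp8, 88549 FPKM against 516350 to 842640 FPKM in the other libraries, and the part of this in the differences was not tested.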

How the results depend on the processing

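Counts of genes past the threshold over the whole table moved with the settings, while the count of the 10 members stayed at 0 in each direction under all 17 alternatives. All genes gave 16 higher and 42 lower in knockout livers; the number higher was 10 with no filter, 33 with a term for library numbers and 26 in libraries L0602 to L0605 alone. With the replicate block 0 were higher and 0 lower by limma (776 and 942 at an unadjusted p under 0.05). The labels do not say whether the numbers pair the libraries. Deviations from group means correlated across genes at 0.346, 0.133 and 0.0212 for numbers 1, 2 and 3. Arid1a_KO_DDC replicate 1 was closest to WT_DDC replicate 1 (-0.172 and -0.269 with WT_DDC replicates 2 and 3). Arid1a_KO_DDC replicate 2 was closer to WT_DDC replicate 3 (0.260). These correlations cannot settle pairing, since the deviations within a group depend on one another. Leaving out 1 library gave 0 to 30 higher and 0 to 40 lower; higher and lower were 30 and 37 without Arid1a_KO_DDC replicate 1, 6 and 40 without its replicate 2, 0 and 0 without its replicate 3 (391 and 527 unadjusted), 9 and 26 without WT_DDC replicate 1, 0 and 6 without its replicate 2 and 0 and 2 without its replicate 3. The causes were not tested. Of the wider lists 0 to 1 genes passed, Rhoc without Arid1a_KO_DDC replicate 1.

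Of the 102 wider genes 83 were negative with quantile scaling, against 84 as reported. With each library left out, the log2 difference of Actb was -0.66 to 0.67 (below 0 without Arid1a_KO_DDC replicate 2, and -0.00402 without WT_DDC replicate 2). The log2 difference of Myl9 was -0.71 to 0.15 and above 0 without Arid1a_KO_DDC replicate 3. The log2 difference of Tmsb10 was -0.23 to 0.031, above 0 without Arid1a_KO_DDC replicate 3 and, at 0.016, without WT_DDC replicate 2. The log2 difference of Tpm3 was -0.45 to 0.078, above 0 without Arid1a_KO_DDC replicate 2, without its replicate 3 (0.010) and without WT_DDC replicate 1 (0.039). The log2 difference of Myh10 was -0.21 to 0.060, above 0 without Arid1a_KO_DDC replicate 3 and, at 0.020, without WT_DDC replicate 2. The median of the members was -0.50 to -0.12 over all alternatives. Absolute depth is unknown, so counting error is not given.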

Other observations

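The excess of Actb in Arid1a_KO_DDC replicate 2 and WT_DDC replicate 1 was shared by few genes. Of 11839 genes tested, 2 had values in both of these libraries at least 2 times the highest of the other 4, Actb and Apbb2, an adaptor of the amyloid precursor protein that was at 1.88, 3.95 and 1.72 FPKM in knockout and 4.50, 1.31 and 1.45 FPKM in wild-type replicates 1, 2 and 3. This count was made after the values of Actb were seen. Lrrc58, whose transcripts shared 9.57% of the 50-base windows of Actb, was at 5.49, 6.66 and 8.15 FPKM in knockout and 5.78, 8.98 and 8.32 FPKM in wild-type livers, and did not follow it.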
